A study of Homo sapiens with 4 samples.

Results

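The data describe 10 genes of the small RNA pathway, the machinery that an siRNA enters when it silences a transcript, in HCT116 cells, a cell line long established from a human colorectal carcinoma. The genes are DROSHA, DGCR8, XPO5, DICER1, TARBP2, AGO1, AGO2, AGO3, TNRC6A and TNRC6B, and every probe set whose single annotated gene symbol was among them was taken, which gave 34 of the 54675 probe sets on the array and 9 of 19775 genes. The probe sets of each gene are numbered here by their mean signal over the 4 arrays, from the brightest (1) down, as names only. Cells kept in McCoy's 5A medium with serum received either a control siRNA or a TET1 siRNA in a lipid reagent, and each of the groups has 2 arrays. TET1 encodes an enzyme that converts methylcytosine of DNA to hydroxymethylcytosine. The series asked which genes depend on TET1, and its design text calls the samples biological duplicates. Both groups carried an siRNA, so each value below compares one siRNA with another; cells without any siRNA were not analysed here. Loss of TET1 and other effects of the TET1 siRNA cannot be told apart.

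In this pathway a primary microRNA transcript is cut in the nucleus by the Microprocessor, made of the ribonuclease DROSHA and its RNA-binding partner DGCR8. The hairpin that results is exported by XPO5 (exportin 5) and cut again in the cytoplasm by DICER1, with TARBP2 as a double-stranded RNA binding partner. The small RNA is then loaded into an Argonaute protein, of which human cells have AGO1 to AGO4, with AGO2 the one best known for slicing a perfectly matched target. Argonautes bind the TNRC6 (GW182) scaffold proteins, which recruit deadenylases and decapping factors. A synthetic siRNA duplex is already of the size that DICER1 makes, so it can be loaded without nuclear processing or export, and the processing genes and the Argonautes are therefore set side by side below.

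DGCR8 had 0 probe sets under this rule. The 4 probe sets at DGCR8 are annotated to DGCR8 and to MIR1306, a microRNA gene that lies inside the DGCR8 transcript, so the annotation gives them 2 symbols. The Microprocessor is known to cut hairpins in the DGCR8 transcript itself, which lowers the messenger RNA of its own partner. The mature microRNAs that the RefSeq tables place within DGCR8 are shown because 2 of them come from MIR1306, the second gene of that annotation. They are 5′ to 3′ with the seed (bases 2 to 8) in capitals, on the plus strand of chromosome 22 of GRCh38.p14, and the array does not measure mature microRNAs.
hsa-miR-3618, chr22:20085797-20085818: uGUCUACAuuaaugaaaagagc
hsa-miR-1306-5p, chr22:20086072-20086093: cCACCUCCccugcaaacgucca
hsa-miR-1306-3p, chr22:20086112-20086129: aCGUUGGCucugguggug
The 3 seeds differ from each other. The 4 probe sets annotated to both MIR1306 and DGCR8 all had both TET1 siRNA arrays below both control siRNA arrays, and none passed the threshold (limma adjusted p from 0.315 to 0.593). Of the 27306 probe sets bright enough to be tested, 28.9% had their groups apart in that direction. The 4 share an annotation and are not independent. Probe set 1 read 149.2 and 148.8 with control siRNA, against 105.5 and 143.8 with TET1 siRNA, a log2 difference of -0.24 (95% interval -0.57 to 0.084). The log2 differences of the other three, in the order of their numbers, were -0.28, -0.17 and -0.35. These 4 probe sets are in none of the counts below.

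The signals are in arbitrary units on a linear scale. Log2 differences are TET1 siRNA minus control siRNA, taken after adding 16 to each signal, and so come out too small for dim probe sets. The TET1 transcript, which checks the labels, read 58.1 and 59.6 with control siRNA, against 14.6 and 15 with TET1 siRNA by its brighter probe set, and so lay lower on both TET1 siRNA arrays (log2 difference -1.28, limma adjusted p = 0.00127). Its dimmer probe set read 18.2 and 35.5 against 6 and 8.9, also lower on both, but did not pass (log2 difference -0.84, limma adjusted p = 0.0509). Median signals of the arrays ran from 13.9 to 15.5, and the ratio of 3′ to 5′ signal of GAPDH, a sign of RNA integrity, from 0.846 to 0.884. The same ratio of ACTB was 1.21 and 1.19 with control siRNA and higher, at 1.28 and 1.26, in the TET1 siRNA group; its part in the results was not tested. All 5 epithelial markers passed the filter, with mean signals from 713 to 7045; of these KRT8 rose by 0.32 on the log2 scale and CDH1 fell by 1.16. By contrast 0 of 4 myeloid markers measured, 1 of 5 endothelial, 2 of 5 lymphocyte and 3 of 6 fibroblast markers passed it. Of the 3 fibroblast markers, COL1A1 rose by 0.47 in its brightest probe set but was at -0.073 averaged over its probe sets, and COL1A2 (-0.20) and DCN (-0.10) did not pass. The summed signal of that list, most of it COL1A1, ran from 312.4 to 353.6 with control siRNA and from 386 to 491.6 with TET1 siRNA. The part of these markers in the results was not tested. With 2 arrays a group, precision is limited throughout, and in a bulk extract fewer cells with a transcript and less transcript per cell cannot be told apart.

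Signals of DICER1 (3 probe sets), XPO5 (2) and AGO1 (2) fell with TET1 siRNA, those of AGO2 (1) and AGO3 (1) rose, and no probe set of DROSHA, TARBP2, TNRC6A or TNRC6B passed the threshold. Of the 34 member probe sets, 29 had a mean signal above the filter on dim probe sets (a mean log2 value of 4.86, a signal of 13.1) and were tested, and 9 of the 29 passed (limma adjusted p below 0.05), 2 higher and 7 lower. Of all 27306 probe sets tested, 16.1% passed, 7.76% higher and 8.31% lower. Groups did not overlap in 20 of the 29, against 56.1% of all probe sets tested. The median log2 difference was -0.13 over the 29, beside -0.0098 over all probe sets tested. By gene, with each gene read from its brightest probe set, 5 of the 9 member genes tested passed, 2 higher and 3 lower, against 21.9% of the 12389 genes tested (11.2% higher and 10.6% lower). Probe sets of one gene share its transcripts and are not independent, and the genes were chosen with earlier results known, so these shares are descriptions. The 5 probe sets below the filter, 3 of DICER1 and 2 of TNRC6A, had signals from 0.5 to 16.4.

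**Figure D1:**
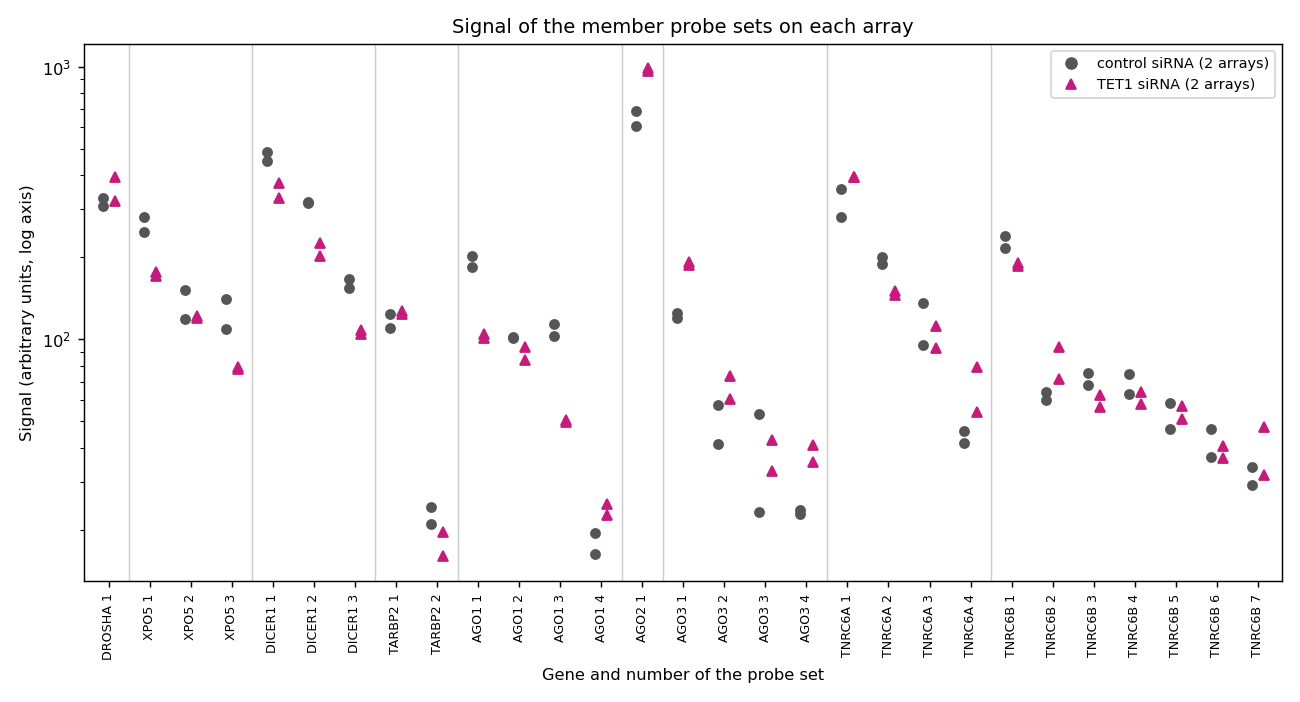
Signal of each of the 29 member probe sets tested on each array, on a log axis in arbitrary units, grouped by gene; circles are the 2 control siRNA arrays and triangles the 2 TET1 siRNA arrays. For AGO2 the triangles (984.6 and 961.3) lie above the circles (607.8 and 689.1), and for the 3 DICER1 probe sets and AGO1 probe set 1 they lie below.

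DROSHA, the nuclear ribonuclease that makes the first cut, has a single probe set. It read 328.7 and 309.3 with control siRNA, against 322 and 393.7 with TET1 siRNA. The groups overlapped, since the first TET1 siRNA array lay between the control arrays. The log2 difference was 0.15 (95% interval -0.093 to 0.40, limma adjusted p = 0.412).

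XPO5, which carries precursor hairpins out of the nucleus, was lower by 2 of its 3 probe sets. All 3 carry the suffix _s_at, which by the array maker's naming can match more than 1 transcript. XPO5 probe set 1 read 282 and 246.7 with control siRNA, against 177.2 and 170.6 with TET1 siRNA, so that 65.8% of the control signal was left. Both TET1 siRNA arrays lay well below both control arrays, with a log2 difference of -0.56 (SE 0.11, limma adjusted p = 0.0067). XPO5 probe set 3 read 140.4 and 109.2 against 79.2 and 77.6, with a log2 difference of -0.57 (SE 0.15, limma adjusted p = 0.0275). XPO5 probe set 2 read 151.8 and 118.3 against 122.2 and 119.7, and its groups overlapped (log2 difference -0.13, 95% interval -0.45 to 0.18). On the control arrays replicate 1 was the higher in all 3, by more than the TET1 siRNA arrays differed from each other. Without control siRNA replicate 1, neither of the 2 passed (limma adjusted p = 0.05002 and 0.178), and probe set 3 also missed the threshold without either TET1 siRNA array (limma adjusted p = 0.076 and 0.0962).

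DICER1, the ribonuclease that cuts the precursor to its final length, fell by each of the 3 probe sets above the filter. DICER1 probe set 1 read 452.4 and 487.6 with control siRNA against 329.7 and 373.3 with TET1 siRNA (74.8% left; log2 difference -0.40, SE 0.098, limma adjusted p = 0.017). DICER1 probe set 2 read 315.9 and 319.6 against 201.9 and 224.7 (67.1% left; log2 difference -0.54, SE 0.10, limma adjusted p = 0.00503). DICER1 probe set 3 read 154.5 and 165.8 against 104.8 and 108.5 (66.6% left; log2 difference -0.52, SE 0.12, limma adjusted p = 0.0163). In all 3 both TET1 siRNA arrays lay below both control arrays, and the intervals of the 3 differences overlapped (-0.62 to -0.19, -0.77 to -0.31 and -0.80 to -0.25). Leaving out any 1 array kept the call of probe set 2. Without control siRNA replicate 2 or TET1 siRNA replicate 1, neither of the other probe sets passed (limma adjusted p from 0.0693 to 0.113), and probe set 3 also missed the threshold without TET1 siRNA replicate 2 (limma adjusted p = 0.0547). With the mean of all 6 DICER1 probe sets the gene was at -0.30 and did not pass (limma adjusted p = 0.14). The 3 below the filter read 0.5 to 16.4, with overlapping groups.

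TARBP2, the double-stranded RNA binding partner of DICER1, did not pass. TARBP2 probe set 1 read 124.3 and 110.3 with control siRNA, against 123.5 and 127 with TET1 siRNA, and the groups overlapped (log2 difference 0.085, 95% interval -0.20 to 0.37, limma adjusted p = 0.728). TARBP2 probe set 2 read 21.1 and 24.2 against 19.6 and 16, with a log2 difference of -0.19 (95% interval -0.67 to 0.28). The 2 probe sets thus had point values of opposite sign, each with an interval that spans 0.

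TET1 acts on methylated cytosine, which in most human cells lies in CpG dinucleotides. For XPO5 and DICER1, which both fell, the bases before the outermost RefSeq start differ in how many CpG they hold. The 250 bases before the RefSeq start that lies at the outer end of each gene are shown 5′ to 3′ on the minus strand of GRCh38.p14 for that reason, with each CG in capitals; methylation was not measured in this series.
XPO5, chr6:43576039-43576288: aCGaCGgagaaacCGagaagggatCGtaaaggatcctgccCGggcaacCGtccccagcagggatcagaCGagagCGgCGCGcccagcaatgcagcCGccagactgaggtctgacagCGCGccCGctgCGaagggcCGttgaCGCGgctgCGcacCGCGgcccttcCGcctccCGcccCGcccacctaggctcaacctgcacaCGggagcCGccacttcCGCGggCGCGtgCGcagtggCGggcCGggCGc
DICER1, chr14:95158011-95158260: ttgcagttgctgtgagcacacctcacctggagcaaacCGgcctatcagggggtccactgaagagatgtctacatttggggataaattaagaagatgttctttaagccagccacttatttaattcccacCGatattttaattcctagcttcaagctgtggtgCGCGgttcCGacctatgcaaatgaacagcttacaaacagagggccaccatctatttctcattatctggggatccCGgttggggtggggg
The XPO5 window holds the letters CG 34 times, and 6.84% of the 35116 windows of this length in the RefSeq table hold as many or more. The DICER1 window holds them 6 times, and 61.91% of windows hold as many or more. DICER1 has 5 windows in the table, with 0 to 30 CG, so its value depends on the start chosen. By its window with 30 (12.42% of windows hold as many or more) DICER1 is near XPO5. The windows of AGO1 and AGO3, which moved in opposite directions, hold 25 and 41. Among members without a call, the windows of DROSHA, TNRC6A and TNRC6B hold 22, 21 and 12, and those of TARBP2 15 to 23. The window of DGCR8, which is in no count, holds 48. A link between these counts and the changes was not tested. CG reads the same on the other strand, and these counts are a description of the sequence only.

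AGO1, one of the Argonautes without efficient slicing activity, had the largest changes among the members. AGO1 probe set 1 read 184 and 202 with control siRNA, against 101.1 and 104.7 with TET1 siRNA, so that 53.3% of the control signal was left (log2 difference -0.81, SE 0.12, limma adjusted p = 0.00139). AGO1 probe set 3 read 103.1 and 114.3 against 50.7 and 49.6 (46.1% left; log2 difference -0.91, SE 0.15, limma adjusted p = 0.00227). Both TET1 siRNA arrays lay far below both control arrays in each, and the size of the change was larger than that of at least 96.8% of all probe sets tested. The other two AGO1 probe sets did not pass. AGO1 probe set 2 read 101.3 and 101.9 against 84 and 93.9 (log2 difference -0.17, 95% interval -0.47 to 0.14). Its interval does not reach the intervals of the pair that fell (-1.08 to -0.54 and -1.25 to -0.58), so the AGO1 probe sets disagree on size. The dim probe set 4 read 16.3 and 19.5 against 22.8 and 25 (log2 difference 0.24, 95% interval -0.24 to 0.71). Both probe sets that fell carry the suffix _s_at, which by the array maker's naming can match more than 1 transcript. The calls of both held when any 1 array was left out.

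AGO2, the slicing Argonaute, rose in its 1 probe set under the rule. It read 607.8 and 689.1 with control siRNA, against 984.6 and 961.3 with TET1 siRNA, 150% of the control signal. The groups were clearly apart, with a log2 difference of 0.58 (SE 0.084, 95% interval 0.39 to 0.76, limma adjusted p = 0.00114). Another 3 probe sets carry the symbol CASC7 beside AGO2 and entered no count.

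AGO3, which lies next to AGO1 on the same chromosome in the RefSeq annotation, rose by 1 of its 4 probe sets. AGO3 probe set 1 read 124.9 and 119.9 with control siRNA, against 192.1 and 187.7 with TET1 siRNA (155% of the control signal; log2 difference 0.57, SE 0.12, limma adjusted p = 0.00747). AGO3 probe set 4 read 22.9 and 23.6 against 41 and 35.4, and probe set 2 read 41.3 and 57.4 against 73.6 and 60.3. In both of these the TET1 siRNA arrays lay above the control arrays, with log2 differences of 0.46 and 0.35 that did not pass (limma adjusted p = 0.142 and 0.244). In probe set 3 the control arrays themselves stood far apart, at 23.3 and 53.4, and enclosed the TET1 siRNA values of 32.9 and 42.6 (log2 difference 0.036, 95% interval -0.54 to 0.61). The calls of AGO2 and of probe set 1 held when any 1 array was left out. Averaged over its 4 probe sets, AGO3 was at 0.36 and did not pass (limma adjusted p = 0.111).

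AGO4, the fourth Argonaute and the neighbour of AGO1 on its other side, is no member of the set. AGO4 probe set 1 read 196.6 and 201 with control siRNA, against 169.5 and 146.9 with TET1 siRNA, and the groups did not overlap. The log2 difference of -0.31 did not pass (95% interval -0.57 to -0.044, limma adjusted p = 0.11). The 3 neighbours AGO4, AGO1 and AGO3 thus gave brightest-probe-set values of -0.31, -0.81 and 0.57, of which those of AGO1 and AGO3 passed. By plain signals the Argonaute probe sets that passed went to between 46.1% and 155% of control.

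TNRC6A and TNRC6B encode the GW182 scaffolds that link Argonaute to the deadenylases, and none of their 11 probe sets above the filter passed. The probe sets of TNRC6A pointed both ways. TNRC6A probe set 1 read 280.3 and 354.6 with control siRNA, against 392.2 and 395.1 with TET1 siRNA (log2 difference 0.31, limma adjusted p = 0.0983). TNRC6A probe set 2 read 189.2 and 200.5 against 145.7 and 150.3 (log2 difference -0.36, limma adjusted p = 0.0548). In each of them the groups did not overlap, and their 95% intervals, 0.053 to 0.56 and -0.61 to -0.11, lie on opposite sides of 0. The first passed without control siRNA replicate 2 (limma adjusted p = 0.0265), and the second with a filter at the upper quartile of signal (limma adjusted p = 0.0333). TNRC6A probe set 4 read 46 and 41.6 against 54.3 and 79.5 (log2 difference 0.46, limma adjusted p = 0.14), and probe set 3 had overlapping groups (-0.14).

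For TNRC6B the log2 differences of 7 probe sets ran from -0.25 to 0.33 with a median of -0.078. TNRC6B probe set 1 read 216.3 and 239.9 with control siRNA, against 190.6 and 186.3 with TET1 siRNA, with groups apart and a log2 difference of -0.25 (limma adjusted p = 0.152). TNRC6B probe set 2 went the other way, from 60 and 64.1 to 71.7 and 93.5 (0.33, limma adjusted p = 0.221). The third paralogue, TNRC6C, which is no member of the set, read 117.1 and 117.3 against 123.3 and 114.3 (0.016, 95% interval -0.27 to 0.30).

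**Figure D2:**
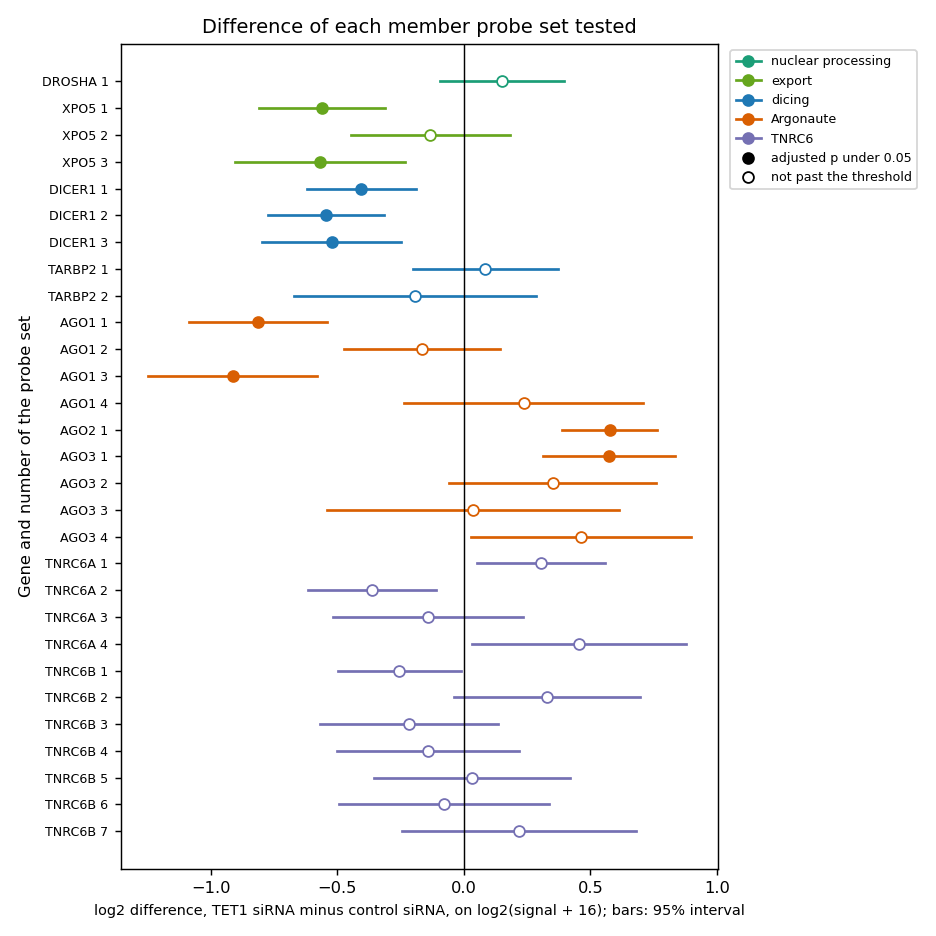
Log2 difference of each of the 29 member probe sets tested (TET1 siRNA minus control siRNA, on log2(signal + 16)), with its 95% interval from limma as a bar; colours give the role of the gene and filled points passed the threshold. The filled points are the 3 of DICER1, 2 of XPO5 and 2 of AGO1 to the left of 0, and 1 each of AGO2 and AGO3 to the right.

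Set side by side by role, the probe sets of XPO5 and DICER1 were mostly lower, those of DROSHA and TARBP2 did not pass, and those of the Argonautes split. Of 9 probe sets tested for DROSHA, XPO5, DICER1 and TARBP2, 5 fell, none rose and 4 did not pass, with a median log2 difference of -0.40 and a range from -0.57 to 0.15. All 5 that fell are of XPO5 or DICER1, and the median is the value of DICER1 probe set 1. By their brightest probe sets DROSHA (0.15) and TARBP2 (0.085) did not pass. Of 9 probe sets tested for AGO1, AGO2 and AGO3, 2 rose, 2 fell and 5 did not pass, with a median of 0.24 and a range from -0.91 to 0.58. Of 11 tested for TNRC6A and TNRC6B, 0 passed limma's test, with a median of -0.078. Beside these counts, 7.76% of all probe sets tested passed as higher and 8.31% as lower. At an unadjusted p below 0.05 stood 5 of the 9 for processing and export (0 higher and 5 lower), 5 of the 9 for the Argonautes (3 higher and 2 lower) and 4 of the 11 for TNRC6 (2 in each direction). Of all probe sets tested, 29.4% did so, 14.2% higher and 15.2% lower, and the TNRC6 count is near that share. The Argonaute median is the value of AGO1 probe set 4, which did not pass. Probe sets of AGO1 ran from -0.91 to 0.24 and those of AGO3 from 0.036 to 0.57. No test of the difference between the roles was made. An exact permutation test of 2 arrays against 2 cannot give a p below 0.33, so each call rests on limma's sharing of variance between probe sets. Without that sharing 0 member probe sets passed, and 9 of 29 had an unadjusted p below 0.05, beside 18.8% of all probe sets. Without control siRNA replicate 2 the Argonaute median was 0.45. Without TET1 siRNA replicate 1 fewer member probe sets fell, and fewer of all probe sets passed. Without _x_at and _s_at probe sets, where 2352 of all 16583 passed in either direction, 2 member probe sets fell, both of DICER1. The rest of those that fell carry the suffix _s_at, so that setting leaves them out and does not test them.

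**Figure D3:**
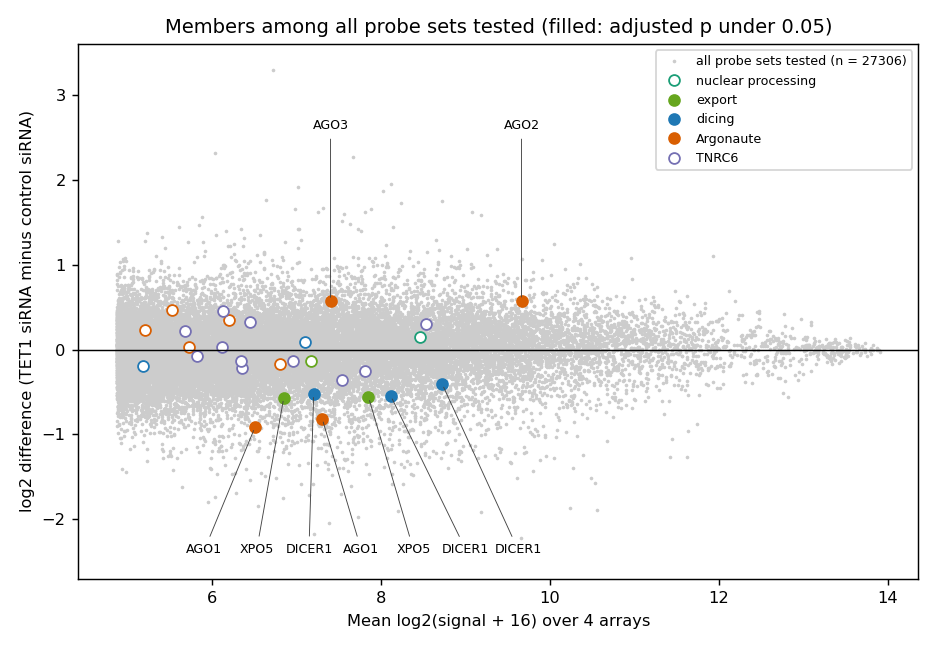
Log2 difference against mean log2(signal + 16) for all 27306 probe sets tested (grey) and the 29 of the members (coloured by role, filled where they passed). The members lie within the cloud of all probe sets, with AGO1 at its lower side (-0.81 and -0.91).

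A list of 72 other genes of the pathway, written with earlier results of these data known, gave 65 genes above the filter, of which 10 rose, 12 fell and 43 did not pass (median log2 difference -0.097, beside 0.0098 over all genes tested). That is 10 and 12 of 65 beside 11.2% and 10.6% of all genes. With any 1 array left out, fewer genes of the list rose, and fewer of all genes passed. When all probe sets of each gene were averaged, 1 rose (AJUBA) and 6 fell (DDX5, ILF2, TSN, HSP90AA1, IPO8 and DCP1A), and the other calls of this list were lost. Calls were also fewer over all genes: 1664 of 11567 passed in either direction, against 2709 of 12389 by the brightest probe set.

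Of 16 factors of primary and precursor transcripts, 5 fell and 1 rose, beside 10.6% lower and 11.2% higher of all genes. ILF2, which binds double-stranded RNA, fell by 0.60 on the log2 scale (2510 ± 14.6 with control siRNA, 1653 ± 56.5 with TET1 siRNA, SD, n = 2). The helicase genes DDX17 and DDX5, whose products bind the Microprocessor, fell by 0.55 and 0.38, and HNRNPA1 (hnRNP A1, an RNA-binding protein that can help the processing of a primary microRNA) by 0.42. DDX17 and HNRNPA1 each passed in 1 probe set (of 4 and 3 tested) when each was tested by itself, and averaged over its probe sets HNRNPA1 was at -0.16. SRSF3, a splicing factor that also binds primary microRNAs, fell by 0.33, and TUT7, a uridylyltransferase of precursors, rose by 0.37 in 1 of 5 probe sets (0.023 averaged). Of 5 export and dicing partners, TSN and TSNAX passed in opposite directions, beside the same shares of all genes. These encode translin and its partner TRAX, which form a nuclease that removes the passenger strand. TSN went from 1202 ± 96.9 to 606 ± 9.69 (SD, n = 2; log2 difference -0.97) and fell by all 3 of its probe sets, while TSNAX went from 491.4 ± 52.8 to 614 ± 40.4 (0.31), a call of the fit by gene and not of the fit by probe set. XPO1 and PRKRA, the gene of a further DICER1 partner, did not pass, and neither did RAN, although 1 of its 2 probe sets was higher in the fit by probe set.

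Of 17 Argonaute loading factors and partners tested, 4 rose and 4 fell, beside 11.2% higher and 10.6% lower of all genes. AJUBA, a LIM protein of the Argonaute complex that also acts in Hippo signalling, rose from 200.4 ± 13.2 to 466.9 ± 13.6 (SD, n = 2; log2 difference 1.16) and by all 3 of its probe sets. ZSWIM8, the adaptor of a ubiquitin ligase that removes Argonaute during target-directed microRNA decay, rose from 70.1 ± 3.11 to 146.3 ± 14.3 (0.91), but was at 0.46 averaged over its probe sets and then did not pass (limma adjusted p = 0.0556). IPO8, an importin that binds Argonaute, fell by 0.58 in 1 of 2 probe sets. FKBP4, an HSP90 co-chaperone, fell by 0.49 in 1 of 4, and was at -0.32 averaged (limma adjusted p = 0.0591). The chaperone gene HSP90AA1 fell by 0.36 in all 4 of its probe sets and STIP1 by 0.28, while SND1 rose by 0.35 and DNAJA2 by 0.24. The calls of STIP1, SND1 and DNAJA2 are of the fit by gene and not of the fit by probe set.

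Of 27 silencing effectors downstream of TNRC6, 4 rose, 2 fell and 21 did not pass, beside 11.2% higher and 10.6% lower of all genes. The counts of this list are near those shares. DCP2, the decapping enzyme, rose from 576.3 ± 93.8 to 995 ± 81.6 (SD, n = 2; log2 difference 0.78), by 3 of 4 probe sets, while DCP1A, its activator, fell from 486 ± 98.9 to 335.4 ± 45.0 (-0.51), by both of its probe sets. CNOT2, a scaffold subunit of the CCR4-NOT deadenylase, had a log2 difference of -0.74 and fell by both probe sets above the filter, and CNOT7, a catalytic subunit, rose by 0.41 in 2 of 3. With all probe sets averaged, DCP2 was at 0.41 (limma adjusted p = 0.0528), CNOT2 at -0.14 and CNOT7 at -0.007. EDC3, an enhancer of decapping, rose by 0.45 and LSM14A, a P-body protein, by 0.34, each in 1 probe set (0.15 and 0.12 averaged). SRSF3, TUT7, HSP90AA1, STIP1, SND1, DNAJA2, CNOT7 and LSM14A were named after their values were seen. XPO1, PRKRA and RAN, given above, also lie outside the rule by which genes were named.

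**Figure D4:**
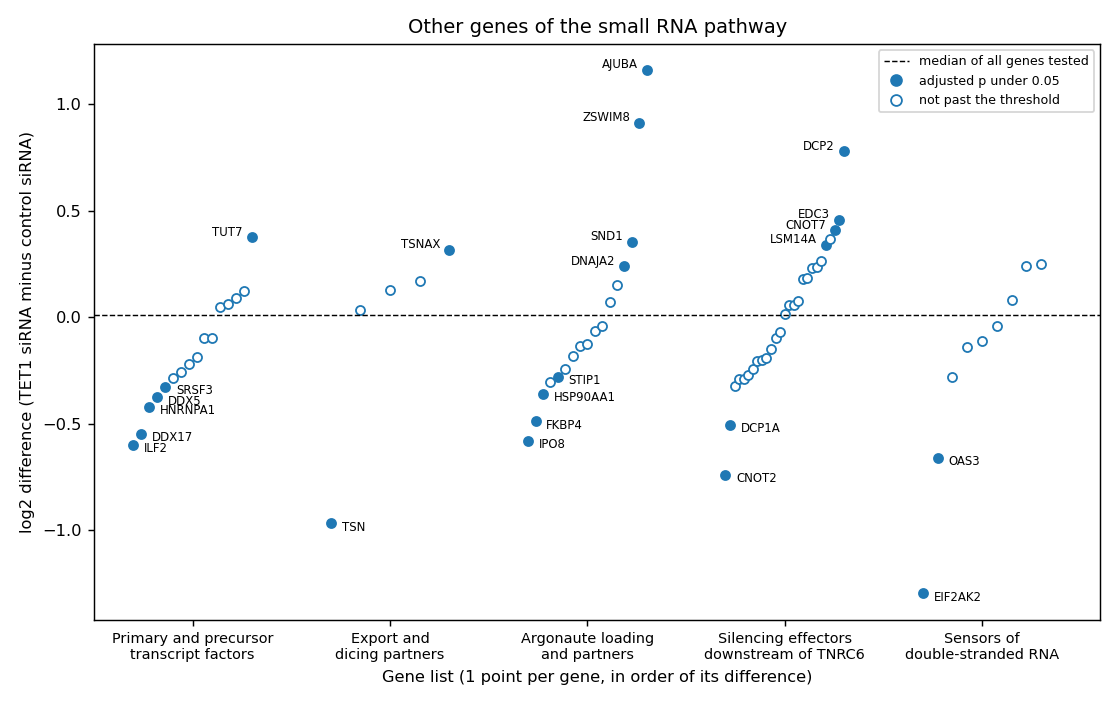
Log2 difference of each gene tested in 4 lists of other pathway genes and in the list of sensors of double-stranded RNA, 1 point per gene by its brightest probe set, in order within each list; filled points passed the threshold and the dashed line is the median of all genes tested (0.0098). Most genes lie near the line, with AJUBA (1.16) at the top and EIF2AK2 (-1.30) at the bottom.

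Sensors of double-stranded RNA, which can meet a transfected duplex, were given a list of their own. Of 9 tested, 2 fell, none rose and 7 did not pass (median log2 difference -0.11), beside 10.6% lower and 11.2% higher of all genes, and with so few genes nothing is read from these counts. EIF2AK2, the kinase PKR, went from 258.5 ± 6.51 to 95.95 ± 8.70 (SD, n = 2; log2 difference -1.30, limma adjusted p = 3.9e-05), in 1 of its 3 probe sets when each was tested by itself, and was at -0.53 averaged over its probe sets. OAS3, an oligoadenylate synthetase, went from 124.7 ± 4.60 to 73.05 ± 0.919 (SD, n = 2; log2 difference -0.66, limma adjusted p = 0.00578), and did not pass averaged over its probe sets (-0.44, limma adjusted p = 0.0726). Genes of the PIWI pathway, the small RNA pathway of germ cells, were dim: of 12 on the array 2 passed the filter, PIWIL2 (0.0028) and PIWIL4 (0.049), neither of which passed the test, and the highest mean signal was 15.2.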

How the data were processed

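RNA of 4 HCT116 cultures was hybridised to 1 GeneChip array each. Per the labels' protocols, reverse transcription started from the poly(A) tail and the labelled cRNA was fragmented, which weights signals to 3′ ends. Each deposited value is a probe set's linear intensity; the values show that the authors brought every array to 1 trimmed mean (100.01). Which software and background step they used is not given in the sources used here; dim values depend on it. Of 54675 probe sets, 62 controls were left out; the platform annotation gave 1 symbol for 41091, several for 1801 and none for 11721, and gene identifiers of 41037 matched the RefSeq table (GRCh38.p14, names only).

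Values were analysed as log2(signal + 16) with limma 3.58.1 in R 4.3.3 (lmFit, eBayes with trend, 2 residual degrees of freedom plus a prior of 8.73), two-sided, Benjamini-Hochberg over all 27306 probe sets with a mean log2 value above the median of all; for genes, over 12389 genes read from their brightest probe set. Calls have adjusted p below 0.05. The rule names all members, TET1, AGO4, TNRC6C and, of each other list, up to 4 genes that passed by size of change, or up to 2 by p where under 2 passed. Members and lists were chosen with earlier results of these data known. Alternatives were other normalizations, pseudocounts, variance models, filters, probe set choices, a stricter threshold, the replicate block and leaving out each array. The fit was tested on simulated data. Of the pathway genes written, 3 had no probe set with a single symbol. Promoter and microRNA sequences are RefSeq's; 9 of 10 members had a promoter window. Figures were drawn with matplotlib 3.10.9.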

Additional observations from a re-analysis of the deposited data

Results flagged for a closer look

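Probe sets whose annotation names 2 genes entered no count of the members, and 3 of them, annotated to CASC7 and AGO2, were higher with TET1 siRNA than in the control siRNA arrays. The CASC7 gene identifier has 0 entries in the RefSeq table used here. Probe set 2 rose from 349.3 and 309.9 on the control arrays to 667.7 and 674.9, a log2 difference of 0.99 (SE 0.092, limma adjusted p = 7.7e-05). Probe set 1 read 597.4 and 677.4 against 826.7 and 986, with a log2 difference of 0.49 (0.495, limma adjusted p = 0.00712). Probe set 3 read 85 and 89.5 against 131.8 and 126, also with a log2 difference of 0.49 (0.489, limma adjusted p = 0.0297). All 3 had both TET1 siRNA arrays above both control siRNA arrays, as the probe set of AGO2 alone did (0.58). Of all probe sets tested, 27.3% had their groups apart in that direction and 7.76% passed as higher. Which of the 2 genes they read was not tested.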

How the results depend on the processing

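The 9 calls among the members kept their direction in every alternative that tested them, but only the other normalizations could have changed it. The groups of all 9 lay apart, so leaving out 1 array or another pseudocount could not. The remaining settings change the test or the probe sets tested, not the difference. As probe sets, all 9 calls were lost in limma without moderation, and all but those of AGO1 without a variance trend. With no filter on dim probe sets the calls of DICER1 probe set 1 and XPO5 probe set 3 were lost too (limma adjusted p = 0.0596 and 0.0966). Without moderation 0 member probe sets rose and 0 fell (9 of 29 at unadjusted p below 0.05, beside 18.8% of all probe sets; 1 of all 27306 passed the adjusted threshold), 0 member genes rose and 0 fell, 0 pathway genes rose and 0 fell, and TET1 was at -1.28 (adjusted p = 0.0964). Without a variance trend 0 member probe sets rose and 2 fell, while in the fit by gene 2 member genes rose and 2 fell, and 3 pathway genes rose and 5 fell. Calls were fewer everywhere in that setting. Of all 27306 probe sets 839 passed in either direction, against 4387 in the main fit, and of all 12389 genes 984, against 2709. At adjusted p below 0.01, 4 member probe sets fell. With probe sets averaged within genes 1 member gene rose, and 1 pathway gene rose and 6 fell, where 1664 of all 11567 genes passed in either direction. Leaving out the _x_at and _s_at probe sets takes out, untested, all but 2 of the member probe sets that fell. In that setting these 2 and 7 pathway genes fell. Passing in either direction then were 2352 of all 16583 probe sets and 1794 of all 9554 genes. The processing median was -0.30. With no filter it was -0.25, and 6 pathway genes rose, where 1759 of all 19775 genes passed in either direction. With the upper-quartile filter the processing median was -0.46. The Argonaute median was 0.40 with a pseudocount of 1 and 0.10 with 64. Leaving out 1 array gave a processing median of -0.49 to -0.32 and an Argonaute median of 0.17 to 0.45. Fewer probe sets passed in each of these fits, among the members and among all probe sets. The lone array is then assumed to vary like the other group. A sign change on leaving out 1 array is possible only where the groups overlap. Such changes were limited to probe sets that did not pass: AGO3 probe set 3 (-0.37 to 0.45, and -0.095 without TET1 siRNA replicate 2), TNRC6A probe set 3 (-0.36 to 0.081), TNRC6B probe set 6 (-0.20 to 0.045), TNRC6B probe set 5 (-0.087 to 0.15, and -0.032 without TET1 siRNA replicate 2) and XPO5 probe set 2 (-0.29 to 0.028). The cause was not tested. With the replicate block 2 member probe sets rose and 7 fell, as without it. Deviations of same-numbered arrays correlated at 0.0066. With 2 arrays a group this cannot show whether same-numbered cultures were handled together.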
